A study of Mus musculus with 6 samples.

Results

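The platelet-derived growth factor (PDGF) family is represented in these data by 6 of the 23282 gene rows, the ligand genes Pdgfa, Pdgfb, Pdgfc and Pdgfd and the receptor genes Pdgfra and Pdgfrb, which were taken by the symbols the tables hold in upper case (PDGFA, PDGFB, PDGFC, PDGFD, PDGFRA and PDGFRB). Their raw counts were compared in an astrocyte cell line from mouse brain that lacks Ink4a (Ink4a-/-, called Ink4a/Arf-/- in the study's text). Of the 6 libraries, 3 came from cells carrying the empty vector pcDNA3.1-puro (control) and 3 from cells carrying pcDNA3.1-JAG1-puro (JAG1-overexpressing), which drives the Notch ligand Jagged1. The labels give the control libraries the genotype WT, which was read as without the JAG1 vector, since the same Ink4a-/- line is named for all 6 libraries. All cells were grown in DMEM with fetal bovine serum, L-glutamine, penicillin, streptomycin and gentamicin, and the labels name no added ligand. The sources used here do not tell whether replicates are separate transfections or cultures, so the spread between them may be technical. The labelled cell type was checked first. Gfap and Aqp4, defining genes of astrocytes, had 0 reads in all 6 libraries, and Slc1a2 and Slc1a3 had at most 2. Of 10 astrocyte markers listed, 6 had enough reads to be tested, and of these Sox9 and Gja1 had the highest mean levels in both groups. These markers do not settle the cell type, and the cells are called astrocytes here after their label.

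PDGF ligands are secreted as dimers of A, B, C or D chains. A and B chains are cleaved inside the cell, whereas C and D dimers are released in a latent form and are activated outside the cell by proteases. The alpha receptor, encoded by Pdgfra, binds A, B and C chains, and the beta receptor, encoded by Pdgfrb, binds B and D chains; both are receptor tyrosine kinases that signal through PI3K, Ras and phospholipase C. In the brain, Pdgfra marks oligodendrocyte progenitors, Pdgfrb marks pericytes, and autocrine PDGF signaling is a known driver of glioma.

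The libraries held between 14341634 and 20489062 reads counted on genes. They were made with a QuantSeq kit, whose reads come from transcript 3' ends, so that counts do not scale with transcript length. Levels are given as CPM, which are reads per 1000000 reads after TMM normalization. A count of 3, which corresponds to between 0.148 and 0.206 CPM, served as the detection limit, for counting error only. Jag1, the transfected gene, had 8.99, 10.8 and 11.2 CPM in the control libraries and 15.2, 13.6 and 13.8 CPM in the JAG1-overexpressing libraries, a log2 fold change of 0.46 ± 0.11 (SE) with an adjusted p of 0.00446 in the quasi-likelihood test of edgeR. Cdkn2a, the gene of Ink4a, had at most 5 reads in a library. Reads of the plasmid and of the cell's own gene cannot be told apart in these counts, and the sources used here do not say whether the plasmid transcript carries the 3' end on which Jag1 reads were counted. The family was chosen with its counts in this comparison known. Its differences between the groups are therefore given as a description, with no test. These are bulk libraries, in which fewer cells that express a gene and less RNA of it per cell cannot be told apart.

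Of the 6 PDGF genes, 5 had enough reads to enter the fit over all 11712 genes. In 4 of them, Pdgfa, Pdgfb, Pdgfc and Pdgfrb, every JAG1-overexpressing library lay below every control library, which was also true of 30.9% of all tested genes. The groups overlapped in Pdgfra. In none of the 5 was the lowest JAG1-overexpressing library above the highest control library, whereas it was in 31.1% of all tested genes. The largest difference was that of Pdgfrb, at 31.7% of its control level, and the smallest was that of Pdgfra, at 126%.

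**Figure D1:**
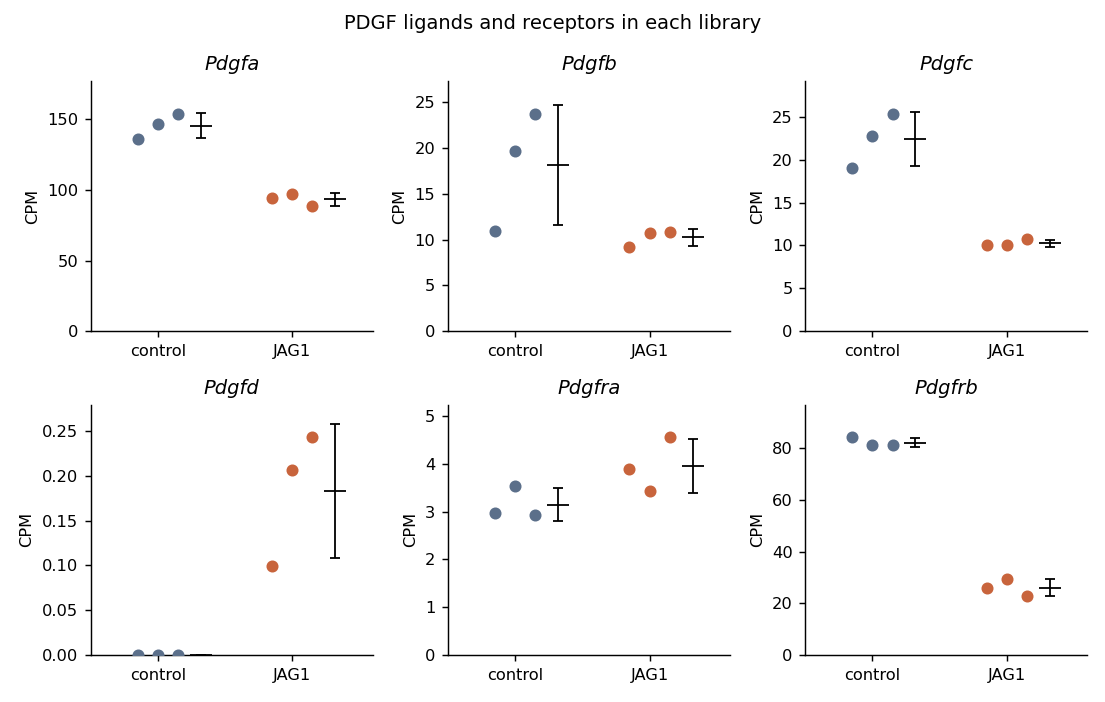
Level of each PDGF gene in CPM, on axes that start at 0, with 1 point per library and the mean ± SD of the 3 libraries of a group beside the points. Pdgfa, Pdgfc and Pdgfrb were apart in the groups, Pdgfb nearly touched between 10.8 and 10.9 CPM, Pdgfra overlapped, and Pdgfd held at most 4 reads in a library.

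Pdgfa, which encodes the A chain, was the most abundant PDGF gene in both groups. It had 136, 147 and 154 CPM in the control libraries and 94.1, 97.4 and 88.4 CPM in the JAG1-overexpressing libraries. The lowest control library was above the highest JAG1-overexpressing library by 26.7% of the control mean. The means were 146 ± 8.97 CPM (SD, n = 3) and 93.3 ± 4.52 CPM (SD, n = 3), and the log2 fold change was −0.64 ± 0.06 (SE). Its level was above that of 88.4% of the tested genes in control and of 81.4% in JAG1-overexpressing astrocytes.

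Pdgfc, which encodes the C chain of the latent, protease-activated kind, differed the most among the ligands. It had 19.1, 22.7 and 25.4 CPM in the control libraries and 10.0, 10.1 and 10.8 CPM in the JAG1-overexpressing libraries. The groups were apart by 37.1% of the control mean, and the JAG1-overexpressing libraries lay close together. The means of Pdgfc were 22.4 ± 3.17 CPM (SD, n = 3) and 10.3 ± 0.415 CPM (SD, n = 3), so that the JAG1-overexpressing level was 45.9% of the control level, with a log2 fold change of −1.12 ± 0.12 (SE).

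Pdgfb, which encodes the B chain that binds both receptors, had 10.9, 19.7 and 23.7 CPM in the control libraries and 9.17, 10.7 and 10.8 CPM in the JAG1-overexpressing libraries. Control replicate 1 stood with the JAG1-overexpressing libraries, and the other control libraries lay well above them. The gap between the groups was 0.558% of the control mean, and with scaling by library size alone the groups overlapped. The coefficient of variation of Pdgfb in the control libraries was 36.2%, larger than in 99.6% of the 500 tested genes nearest to it in level, against 9.04% in the JAG1-overexpressing libraries. The log2 fold change of Pdgfb was −0.83 ± 0.23 (SE). It was −1.09 without control replicate 1 and −0.58 without control replicate 3. The size of the difference thus rested on which control libraries were used, while its sign was the same with any library left out.

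Pdgfd, the other ligand of the protease-activated kind, was at the limit of detection. It had 0 reads in all 3 control libraries and 2, 3 and 4 reads in the JAG1-overexpressing libraries. It did not pass the filter on low counts, and no fold is given.

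Together, the ligand genes summed to 166, 189 and 203 CPM in the control libraries and to 113, 118 and 110 CPM in the JAG1-overexpressing libraries, with means of 186 ± 18.7 CPM and 114 ± 4.09 CPM (SD, n = 3 each). Pdgfa made up most of this pool in both groups. It held 78.4 ± 3.17% (SD, n = 3) of the ligand reads in control and 81.8 ± 1.44% (SD, n = 3) in JAG1-overexpressing astrocytes, and these shares overlapped between the groups. Pdgfc held 12 ± 0.509% (SD, n = 3) in control and 9.03 ± 0.653% (SD, n = 3) in JAG1-overexpressing astrocytes, ranging from 11.5% to 12.5% and from 8.49% to 9.75%, so that its share was lower in every JAG1-overexpressing library. The share of Pdgfb, at 9.56 ± 2.67% and 8.99 ± 0.863% (SD, n = 3 each), overlapped between the groups. The ligand pool was thus smaller in every JAG1-overexpressing library, with A chain transcripts as its main part throughout.

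Pdgfrb, the beta receptor, was the second most abundant PDGF gene and differed more than any other member. It had 84.2, 81.1 and 81.3 CPM in the control libraries and 26.0, 29.4 and 22.8 CPM in the JAG1-overexpressing libraries. The groups were apart by 62.8% of the control mean, and the control libraries lay within a narrow range, with a coefficient of variation of 2.13%. The means of Pdgfrb were 82.2 ± 1.75 CPM (SD, n = 3) and 26.1 ± 3.34 CPM (SD, n = 3), which is 3.16-fold lower, and the log2 fold change was −1.66 ± 0.09 (SE). Among all tested genes, 4.82% had a lower log2 fold change than Pdgfrb. Its level was above that of 79.5% of the tested genes in control and of 54.2% in JAG1-overexpressing astrocytes.

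Pdgfra, the alpha receptor, was low in both groups. It had 2.96, 3.54 and 2.93 CPM in the control libraries and 3.89, 3.44 and 4.56 CPM in the JAG1-overexpressing libraries, from between 50 and 78 reads. JAG1-overexpressing replicate 2 lay below control replicate 2, so that the groups overlapped. The means of Pdgfra were 3.15 ± 0.345 CPM (SD, n = 3) and 3.96 ± 0.561 CPM (SD, n = 3). The log2 fold change of Pdgfra was 0.34 ± 0.18 (SE) and ran from 0.23 to 0.43 with each library left out in turn. Pdgfra was the only tested PDGF gene whose mean was higher in JAG1-overexpressing astrocytes, a direction that was also found under each other normalization tried.

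The make-up of the receptor reads differed more than that of the ligand reads. Reads on Pdgfra were 3.4%, 4.19% and 3.48% of the reads on both receptors in the control libraries, and 13.0%, 10.5% and 16.7% in the JAG1-overexpressing libraries. The exact 95% binomial intervals of these single-library shares ran up to 5.29% in the control libraries and from 7.86% in the JAG1-overexpressing libraries. Such intervals cover the sampling of reads within a library and leave out the spread between replicates. For each read on Pdgfra there were between 22.9 and 28.4 reads on Pdgfrb in the control libraries and between 5 and 8.56 in the JAG1-overexpressing libraries. The means of the summed receptor level were 85.4 ± 1.61 CPM and 30.0 ± 2.78 CPM (SD, n = 3 each). The shift in the shares thus came with a lower level of Pdgfrb, at a level of Pdgfra that overlapped between the groups. Transcripts of the beta receptor were still the larger part in every library.

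**Figure D2:**
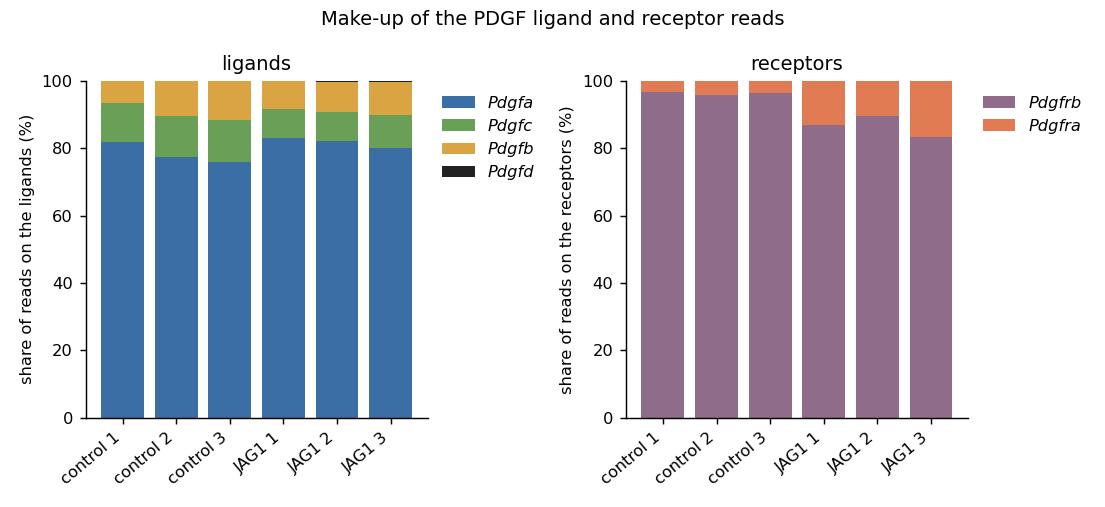
Share of each gene in the reads counted on the PDGF ligands (left) and on the PDGF receptors (right), in percent, with 1 bar per library. Pdgfa takes between 75.8% and 83.0% of the ligand reads in the 6 libraries, and Pdgfra takes at most 4.19% of the receptor reads in the control libraries and at least 10.5% in the JAG1-overexpressing libraries.

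The order of the mean levels in CPM was the same in both groups: Pdgfa, Pdgfrb, Pdgfc, Pdgfb, Pdgfra and Pdgfd. Pdgfc and Pdgfb were neighbours in this order whose ranges over the libraries overlapped in both groups. In control astrocytes the lowest library of Pdgfc, at 19.1 CPM, lay within the range of Pdgfb, and in JAG1-overexpressing astrocytes both had between 9.17 and 10.8 CPM. Within each control library there were more reads on Pdgfc than on Pdgfb, at ratios between 1.07 and 1.75, and in the JAG1-overexpressing libraries the ratios were 1.09, 0.936 and 0.994. Pdgfa reads outnumbered Pdgfrb reads by between 1.62 and 1.90 to 1 in the control libraries and by between 3.31 and 3.88 to 1 in the JAG1-overexpressing libraries. The ligand and the receptor thus differed between the groups in unequal measure, with more ligand reads per beta receptor read in every JAG1-overexpressing library.

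**Figure D3:**
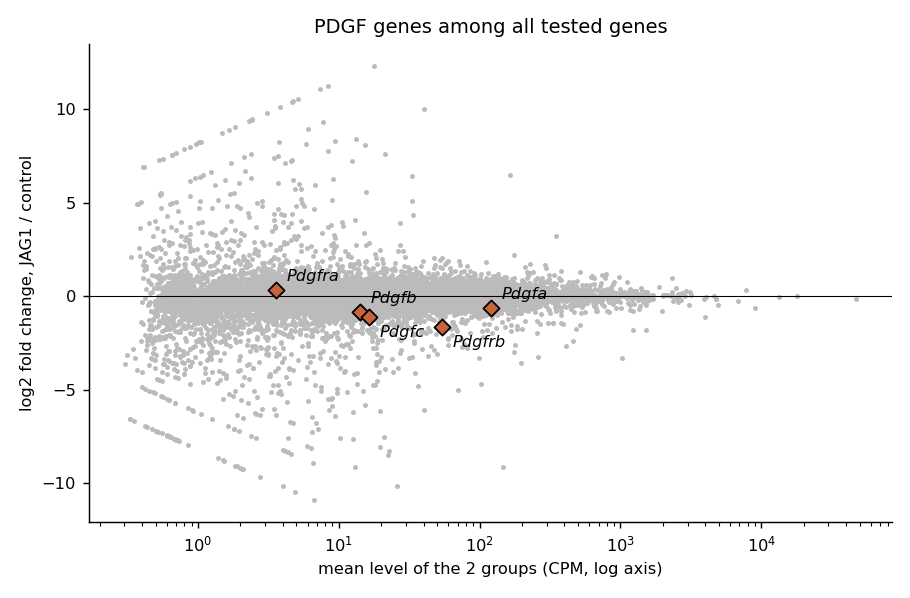
Log2 fold change of JAG1-overexpressing over control astrocytes against the mean level of both groups in CPM (log axis) for the 11712 tested genes in grey, with the 5 tested PDGF genes as diamonds. Pdgfrb lies lowest of the PDGF genes at −1.66 and Pdgfra is above 0 at 0.34.

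The genes lie on 5 chromosomes (GRCm38, the build that the submitters' processing notes name). In the GENCODE M21 annotation Pdgfa is at chr5:138976014-138997370 on the minus strand and Pdgfra at chr5:75152292-75198215 on the plus strand. Pdgfb is at chr15:79995874-80014977 on the minus strand, Pdgfc at chr3:81036416-81214040, Pdgfd at chr9:6168584-6378850 and Pdgfrb at chr18:61045150-61085061, the last 3 on the plus strand. Pdgfrb overlaps no other annotated gene. The other 5 members each overlap genes on the opposite strand, and Pdgfb and Pdgfra also hold a microRNA gene on their own strand, but none of these reaches into the last 1000 bases of the member, from which 3' reads come. The sources used here do not say whether reads were counted by strand.

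Pdgfb lies on a chromosome whose genes were lower as a whole in JAG1-overexpressing astrocytes. The median log2 fold change was −0.53 over the other 458 tested genes of chromosome 15, 0.02 over those of chromosome 5, 0.05 over those of chromosome 3 and 0.0076 over those of chromosome 18. Of the 20 tested genes nearest to Pdgfb, 10 on each side, all 20 were called lower in JAG1-overexpressing astrocytes (adjusted p under 0.05 in edgeR), where 27.7% of all tested genes were called lower, and their median log2 fold change was −0.73. The nearest on either side were Cbx7, a Polycomb protein, which fell from 52.0 to 44.9 CPM (log2 fold change −0.21, adjusted p = 0.017 from edgeR), and Rpl3, a ribosomal protein, which fell from 170 to 156 CPM (log2 fold change −0.13, adjusted p = 0.0488 from edgeR). Among the 20, Npcd and Nptxr overlap and had the same means, 482 and 178 CPM, so that they are not separate measurements. After the chromosome median was subtracted, −0.30 of the −0.83 of Pdgfb remained, and 27.1% of the genes of chromosome 15 had a lower log2 fold change than Pdgfb. The part of the chromosome in the difference of Pdgfb was not tested.

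The levels of Pdgfb and of its chromosome were also set side by side in each library. With log2 levels centred on the mean of the 6 libraries, the median of chromosome 15 relative to the other chromosomes was 0.29, 0.25 and 0.26 in control replicates 1, 2 and 3, whereas Pdgfb was at −0.28, 0.57 and 0.83. In the JAG1-overexpressing libraries the chromosome was between −0.28 and −0.27 and Pdgfb between −0.53 and −0.29. A median over many genes varies less than 1 gene does, so that the spread of Pdgfb among the control libraries cannot be read against that of the median.

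The medians of the 20 nearest tested genes were nearer to 0 around the other members than around Pdgfb. Over all tested genes, 27.4% were called higher and 27.7% lower. Of the 20 tested genes around Pdgfrb, 3 were called higher and 10 lower, at a median of −0.23 in log2 fold change (0.024 over 5 genes on each side), and −1.67 remained of Pdgfrb after its chromosome median was subtracted. Around Pdgfc the median log2 fold change was −0.15, with 3 genes called higher and 7 lower, and around Pdgfa it was −0.10, with 3 higher and 5 lower (−0.0031 over 5 genes on each side). Around Pdgfra it was 0.14, with 8 called higher and 3 lower. Over 5 genes on each side it was 0.34, beside a log2 fold change of 0.34 for Pdgfra itself.

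**Figure D4:**
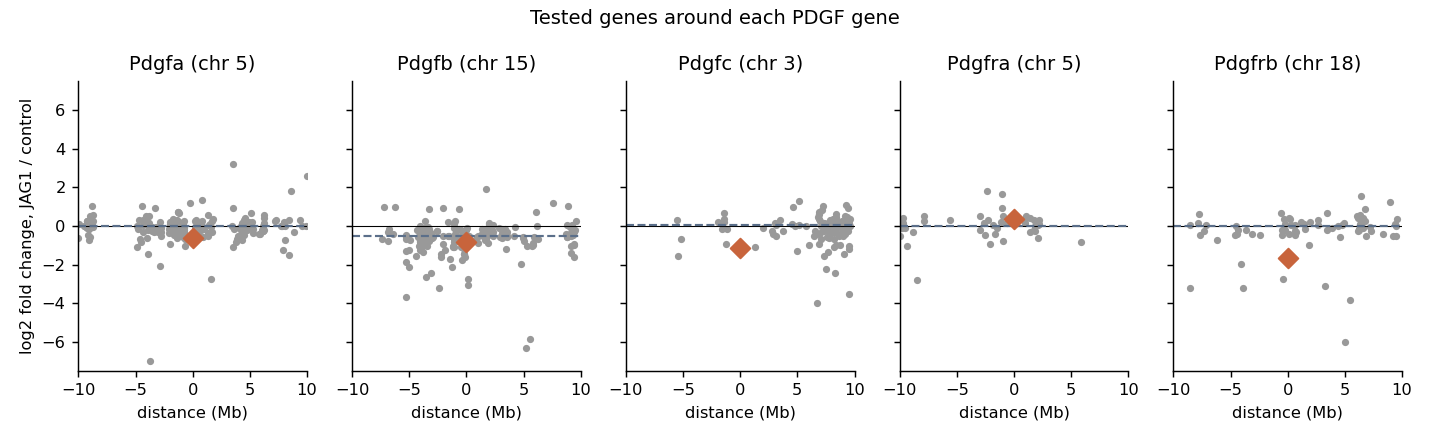
Log2 fold change of JAG1-overexpressing over control astrocytes (vertical axis) of the tested genes within 10 Mb of each PDGF gene, by their distance in Mb from its start; the diamond is the PDGF gene and the dashed line the median of its chromosome. Around Pdgfb the genes are centred below 0, near the chromosome median of −0.53, and around the other PDGF genes they are centred near 0.

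The study asks how the JAG1 intracellular domain acts on transcription together with SMAD3. The letters of the SMAD3 element it names, GTCTG, and the core of the site of RBPJ, the DNA-binding partner of Notch, written as GTGGGAA, were therefore searched on both strands of the 250 bases before each start site in RefSeq's promoter table (GRCm38.p6). The table matched 4 of the 6 genes. Those without an entry are Pdgfb and Pdgfrb. GTCTG or its reverse complement was found in 42.2% and GTGGGAA in 5.42% of all 32851 promoters in the table. Pdgfc had 2 matches to GTCTG, 242 and 23 bases before the start, Pdgfd had 2, 135 and 5 bases before it, and Pdgfra had 1, 146 bases before it. Pdgfa, which was lower in every JAG1-overexpressing library as was Pdgfc, had no match in the windows of either of its start sites. GTGGGAA matched none of the windows. The search differs from that of the study, which also gives the SMAD3 element in a longer form, TWGTCTGV. The study's site in the TWIST1 promoter lies farther from the start than the 250 bases searched here. A window without a match thus does not show that a gene lacks such an element. The study's expression data on the intracellular domain come from another series, and the libraries here carry the JAG1 vector. Pdgfa and Pdgfc are shown as the ligand genes with the clearest separation of the groups, and Pdgfra as the receptor gene whose groups overlapped, each 5′ to 3′ on the strand of the gene with GTCTG or CAGAC in capitals, at chr5:138994945-138995194 (minus strand), chr3:81036166-81036415 (plus strand) and chr5:75152001-75152250 (plus strand).
Pdgfa: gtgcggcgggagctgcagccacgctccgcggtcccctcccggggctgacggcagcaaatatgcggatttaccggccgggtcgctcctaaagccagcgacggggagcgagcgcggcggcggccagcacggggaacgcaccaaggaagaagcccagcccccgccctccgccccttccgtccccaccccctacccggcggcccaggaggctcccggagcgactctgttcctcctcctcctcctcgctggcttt
Pdgfc: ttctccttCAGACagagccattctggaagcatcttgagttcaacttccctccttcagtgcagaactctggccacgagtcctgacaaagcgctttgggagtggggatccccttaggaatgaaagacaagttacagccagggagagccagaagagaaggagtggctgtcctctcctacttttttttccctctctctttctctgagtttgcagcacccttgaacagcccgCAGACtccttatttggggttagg
Pdgfra: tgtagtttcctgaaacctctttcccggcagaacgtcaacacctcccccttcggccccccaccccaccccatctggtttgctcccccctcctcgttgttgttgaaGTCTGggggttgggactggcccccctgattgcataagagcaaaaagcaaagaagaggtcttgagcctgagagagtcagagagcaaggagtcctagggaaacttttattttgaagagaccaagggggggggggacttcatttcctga
The Pdgfa window was the richest in G and C of the 3 shown, at 72.4% with 28 CpG pairs, against a median of 52.4% and 6 pairs over all promoters in the table. Pdgfc had 50.8% and 3 pairs, and Pdgfra 54.4% and 4 pairs. The windows of Pdgfa and Pdgfc thus differed in base make-up. A match of letters is a description of the window and not a site.

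The genes nearest in pattern to each PDGF gene were found by the Euclidean distance of log2 CPM centred over the 6 libraries, among all other tested genes. For Pdgfrb these were Col12a1, a collagen, at a distance of 0.240, which fell from 19.9 to 5.71 CPM, and Slc15a1, a peptide transporter, at 0.248. For Pdgfa they were Ahdc1 at 0.0771 and Nrp1, a coreceptor for semaphorins and VEGF that also binds PDGF, at 0.0872, and for Pdgfc Aldh3a1, an aldehyde dehydrogenase, at 0.115 and Glipr1 at 0.180. For Pdgfra they were Slc26a2, a sulfate transporter, at 0.108 and Wdr7 at 0.142. The nearest to Pdgfb were Gm20756 at 0.353 and Ank2, an ankyrin, at 0.360, which are larger distances than those of the genes nearest to the other members. Within a distance of 0.5 there were 2854 genes for Pdgfra, 1587 for Pdgfa, 307 for Pdgfc, 118 for Pdgfrb and 14 for Pdgfb. Apart from Pdgfb, the number was thus larger for a member with a smaller difference between the groups. Pdgfb differed less between the groups than Pdgfc and Pdgfrb. Its SD between replicates, 0.42 in log2, was the largest of the tested members.

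The other genes of the pathway were grouped by role and, unlike the family itself, tested in the edgeR fit over all 11712 genes, of which 27.4% were called higher and 27.7% lower in JAG1-overexpressing astrocytes. The median log2 fold change of all tested genes was 0.0039. It was −0.53 over chromosome 15 and 0.61 over chromosome 19. Genes of the pathway and marker lists that lie on these chromosomes were not set apart.

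Among 9 genes that process or bind PDGF, 7 were tested, 2 were called higher and 4 lower, and the list median was −0.26 in log2 fold change. Plau, the urokinase that can activate D chain dimers, fell from 5.35 ± 0.268 CPM to 0.731 ± 0.310 CPM (SD, n = 3 each; log2 fold change −2.84, standard error 0.24, adjusted p = 2.26e-06 from edgeR). Plat, the tissue plasminogen activator that activates C chain dimers, rose from 20.8 ± 4.94 CPM to 39.4 ± 3.64 CPM (SD, n = 3 each; log2 fold change 0.93, standard error 0.15, adjusted p = 0.00027 from edgeR). The activator of the C chain was thus higher while Pdgfc itself was lower, and the activator of the D chain was lower where Pdgfd was barely detected. Nrp1 fell from 156 to 98.9 CPM (log2 fold change −0.66, adjusted p = 5.34e-06 from edgeR), as did Sparc, a matrix protein that binds B chain dimers, from 1430 to 1080 CPM (log2 fold change −0.40, adjusted p = 0.000103 from edgeR). Furin, a convertase that cleaves A and B chain precursors, was called higher with a log2 fold change of 0.21 (adjusted p = 0.0378 from edgeR), and this call was lost without control replicate 2 or 3 or without any of the JAG1-overexpressing libraries, with an adjusted p between 0.0505 and 0.134, and with upper-quartile scaling.

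Of 31 transducers that act next to the receptor, 30 were tested, 11 were called higher and 10 lower, and the list median was 0.10 in log2 fold change. The largest rises were those of the adaptor Gab1, from 2.11 to 5.34 CPM (log2 fold change 1.32, adjusted p = 0.0011 from edgeR), of the transcription factor Stat3, from 21.3 to 39.3 CPM (log2 fold change 0.89, adjusted p = 2.92e-06), and of the Ras exchange factor Sos2, from 14.3 to 21.8 CPM (log2 fold change 0.61, adjusted p = 0.000345). Those that fell most were the PI3K regulatory subunit Pik3r2, from 38.4 to 12.9 CPM (log2 fold change −1.58, adjusted p = 1.06e-07 from edgeR), the Src family kinase Fyn, from 15.4 to 5.91 CPM (log2 fold change −1.39, adjusted p = 1.29e-05), and the adaptor Nck2, from 13.6 to 5.59 CPM (log2 fold change −1.28, adjusted p = 1.1e-05). The other PI3K regulatory subunits of the list, named after their values were seen, also fell: Pik3r1 from 230 to 113 CPM (log2 fold change −1.02, adjusted p = 2.74e-08 from edgeR) and Pik3r3 from 12.7 to 5.63 CPM (log2 fold change −1.15, adjusted p = 9.75e-05).

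Of 10 negative regulators of the receptors, 8 were tested, 5 were called higher and 1 lower, and the list median was 0.39 in log2 fold change. The rises were led by phosphatases that act on receptor tyrosine kinases. Ptprj rose from 2.99 ± 0.113 CPM to 7.68 ± 0.682 CPM (SD, n = 3 each; log2 fold change 1.36, standard error 0.14, adjusted p = 1.1e-05 from edgeR), Ptpn1 from 58.6 to 94.4 CPM (log2 fold change 0.69, adjusted p = 1.01e-05) and Ptpn12 from 72.1 to 101 CPM (log2 fold change 0.49, adjusted p = 3.78e-05). Acp1, a small phosphatase, had a log2 fold change of −0.18 (adjusted p = 0.0359 from edgeR), a call that was lost without control replicate 2, without any of the JAG1-overexpressing libraries, with DESeq2 and without the filter, with an adjusted p between 0.0636 and 0.136. Cbl, a ubiquitin ligase of the receptors, had 4.63 and 3.54 CPM and was not called.

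Of 22 genes known to be induced early by PDGF, 19 were tested, 8 were called higher and 5 lower, and the list median was 0.03 in log2 fold change. The transcription factor Egr1 rose from 25.9 ± 3 CPM to 94.0 ± 8.60 CPM (SD, n = 3 each; log2 fold change 1.86, standard error 0.10, adjusted p = 3.52e-08 from edgeR). Ier3, a survival gene, rose from 105 to 351 CPM (log2 fold change 1.75, adjusted p = 1.27e-09 from edgeR), and Spry4, a feedback inhibitor of receptor tyrosine kinases, from 0.475 to 1.59 CPM (log2 fold change 1.74, adjusted p = 0.00783). The chemokine Ccl7 fell from 136 ± 22.3 CPM to 4.34 ± 1.06 CPM (SD, n = 3 each; log2 fold change −5.00, standard error 0.16, adjusted p = 1.08e-09 from edgeR), and Egr3 and Junb fell with log2 fold changes of −1.33 and −0.57 (adjusted p = 0.00154 and 0.00247). The early genes thus moved in both directions. Other growth factors and serum induce the same genes, and no reading of PDGF receptor activity was made.

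The receptors of the same class, Kit, Csf1r and Flt3, did not pass the filter, with 0, at most 9 and at most 2 reads in a library. Of the 7 genes of these receptors and their ligands, 4 were tested, 1 was called higher and 1 lower, and the list median was 0.16 in log2 fold change. Kitl, the ligand of Kit, fell from 42.7 to 31.5 CPM (log2 fold change −0.44, adjusted p = 0.00207 from edgeR) and Flt3l, the ligand of Flt3, rose from 3.02 to 5.23 CPM (log2 fold change 0.80, adjusted p = 0.00232 from edgeR). Pdgfrb was thus the receptor of this class with the most reads in every library.

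**Figure D5:**
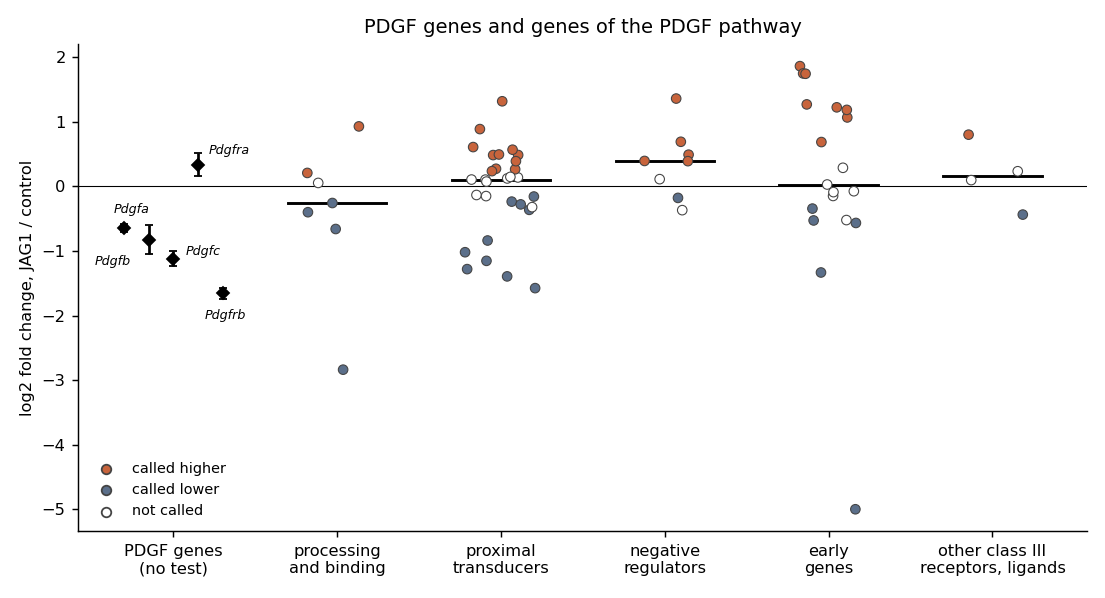
Log2 fold change of JAG1-overexpressing over control astrocytes for the 5 tested PDGF genes (diamonds, bars are standard errors, no test) and for the tested genes of 5 pathway lists (circles, coloured by the call at an adjusted p under 0.05, black bar at the list median). Negative regulators have a median of 0.39 and genes that process or bind PDGF one of −0.26, and Ccl7 is the lowest of the early genes at −5.00.

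As Pdgfra and Pdgfrb are themselves used as markers of cell types, marker lists of the cells a brain culture could hold were measured beside them. Calls in these lists stand beside 27.4% of all tested genes called higher and 27.7% called lower. Of 10 markers of the oligodendrocyte lineage, 8 had 3 reads or fewer in every library and 6 had 0 reads in all of them, Cspg4, Olig1 and Sox10 included, at a summed level between 2.14 and 3.27 CPM in the control and between 0.668 and 1.2 CPM in the JAG1-overexpressing libraries. Of the 2 oligodendrocyte markers tested, 1 was called lower and none higher. Of 10 pericyte or mural markers, Rgs5, Kcnj8 and Higd1b had 0 reads in all libraries, and 3 of 4 tested markers fell, none rose. Their summed level was between 314 and 327 CPM in the control and between 41.0 and 45.6 CPM in the JAG1-overexpressing libraries, most of it Acta2, smooth muscle actin, which fell from 310 to 39.5 CPM (log2 fold change −2.98, adjusted p = 5.31e-11 from edgeR).

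Fibroblast markers moved with Pdgfrb as well. Of 10, 7 were tested, 6 fell and 1 rose, and the summed level was between 903 and 972 CPM in the control and between 308 and 346 CPM in the JAG1-overexpressing libraries. Lox, an enzyme that crosslinks collagen, fell from 470 to 49.8 CPM (log2 fold change −3.24, adjusted p = 2.27e-11 from edgeR), and Col1a2, a chain of collagen I, rose from 3.35 to 50.7 CPM (log2 fold change 3.92, adjusted p = 1.42e-09), while Lum, Postn and Thy1 had 0 reads. Astrocyte markers fell in 6 of 6 tested genes of 10, at a summed level between 337 and 398 CPM in the control and between 123 and 137 CPM in the JAG1-overexpressing libraries. Among them, Aldoc and S100b had at most 57 and 28 reads in a library. Over all tested genes, 27.7% were called lower. Sox9, a transcription factor of astrocytes, fell from 181 to 18.0 CPM (log2 fold change −3.33, adjusted p = 5.31e-11 from edgeR).

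Markers of the remaining cell types were low or made up of few genes. The summed level of 10 microglia markers was between 5.39 and 6.07 CPM in the control and between 3.4 and 4.2 CPM in the JAG1-overexpressing libraries, with 1 called higher and 1 lower of 3 tested. That of 8 endothelial markers was between 1.38 and 2.2 CPM in the control and between 1.3 and 1.46 CPM in the JAG1-overexpressing libraries, with none of 1 tested called. Of 8 neuron markers, 1 was called higher and 2 lower of 3 tested, at a summed level between 101 and 110 CPM in the control and between 58.7 and 61.9 CPM in the JAG1-overexpressing libraries, while Snap25 and Syt1 had 0 reads. The lower level of Pdgfrb thus stood beside summed levels that were lower in every JAG1-overexpressing library for 6 of the 7 marker lists, all but the endothelial one, whose ranges overlapped. Of single tested genes, 30.9% were also lower in every JAG1-overexpressing library. A sum can follow 1 gene and need not stand for its list. In the neuron list Tubb3 fell from 78.2 to 8.4 CPM, while Map2 rose from 25.1 to 51.3 CPM. Their part in the levels of the PDGF genes was not tested.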

How the data were processed

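The 3 control and 3 JAG1-overexpressing libraries were made with the QuantSeq 3' kit. The authors deposited raw read counts per gene symbol, which were used, and the log2 of a normalized count, used only as an alternative. The submitters' processing notes name Bowtie2, bedtools, edgeR and the builds GRCm38 and mm10, with no role or version; annotation and normalization are not given in the sources used here. Of 23282 symbols, 22059 matched a RefSeq symbol (GRCm38.p6) and 1090 a synonym.

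In R 4.3.3, edgeR 4.0.16 with filterByExpr (minimum count 10) kept 11712 genes, followed by TMM normalization, the quasi-likelihood test between the groups, and Benjamini-Hochberg adjustment (threshold 0.05). Standard errors are the size of the log2 fold change over the square root of F. The step was tested on simulated data. Alternatives were DESeq2 1.42.0, limma-voom (limma 3.58.1), other scalings and filters, a fold limit, a replicate block and leaving out each library. Libraries of a group differed by more than sampling noise (chi-square over its degrees of freedom 3.76 or more), so none was a copy. The largest value, 16.1, was that of control replicates 1 and 3.

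The members, lists and naming rule were chosen with earlier results of these data known. The naming rule took the members, Jag1, Cdkn2a, up to 3 called genes per pathway list in each direction, by size of log2 fold change, the 2 genes nearest in pattern to each tested member, the nearest genes on each side on a chromosome with a median beyond 0.3 in size, and markers on which a count turned. Figures were drawn from the same tables.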

Additional observations from a re-analysis of the deposited data

How the results depend on the processing

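The log2 fold changes of the 5 tested PDGF genes kept their direction under all alternatives run, and moved by less than the SD between replicates except that of Pdgfb relative to its chromosome, at −0.30. With each library left out, it ran from −0.69 to −0.60 for Pdgfa, −1.09 to −0.58 for Pdgfb, −1.23 to −1.03 for Pdgfc, 0.23 to 0.43 for Pdgfra and −1.75 to −1.57 for Pdgfrb. In an alternative chosen after seeing the data, scaling by library size alone, the gap between the groups in Pdgfb was −0.505% of the control mean, an overlap. With 5 neighbours on each side, the median log2 fold change was −0.0031 around Pdgfa, 0.34 around Pdgfra and 0.024 around Pdgfrb.

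A limit of 1.5-fold left 1395 genes higher and 1711 lower of all tested genes (3211 and 3247 without it), since fewer genes pass both limits. It left 1 higher and 2 lower that process or bind PDGF, and 3 higher and 6 lower transducers. Of the negative regulators, 2 higher and 0 lower were left. Of the early genes, 8 higher, as many as without the limit, and 2 lower were left. Among the other receptors and ligands of the class, 1 higher and 0 lower were left. Genes called higher that process or bind PDGF were 1 with upper-quartile scaling and 1 to 2 with a library left out, the negative regulators called lower 0 with DESeq2, 0 without the filter and 0 to 1 with a library left out, which are the calls of Furin and Acp1. Genes of the class called higher were 2 with the replicate block and 1 to 2 with a library left out, where the cause was not tested. Same-numbered libraries had correlations of their deviations of 0.148, 0.0614 and 0.119, and each library correlated best with its own number. These values are low and do not settle whether the libraries are pairs. With the replicate block, the standard error of the log2 fold change was 0.145 for Pdgfb, against 0.229 without it. For Pdgfra it was 0.197 against 0.176. The replicate block called 6711 genes against 6458, 6374 of them shared. The counts behind Pdgfra, 50 to 78 reads a library, and Pdgfd, at most 4, limit both.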
